A study of Rattus norvegicus with 151 samples.

Results

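The livers described here came from rats given the 4 lower doses of MCHM (4-methylcyclohexanemethanol), a cyclic primary alcohol used in coal washing, and were set against the livers of the vehicle rats of the same chemical set. They were chosen from the sample labels alone: 16 livers at 0.1, 1, 10 and 100 mg/kg, 4 at each dose, and 5 vehicle livers, together 21 of the 151 arrays of the series. Male Harlan Sprague-Dawley rats aged 6 to 8 weeks had the chemical by gavage once a day for 5 days, and the vehicle rats had corn oil alone. The series also dosed rats with 300 and 500 mg/kg MCHM, with crude MCHM (the technical mixture) and with PPH (propylene glycol phenyl ether), and it profiled kidney. Each array held the liver RNA of 1 animal, and the "replicate" is the animal number of the label. Dosing was done in the morning. The time between the last dose and tissue removal is not given in the sources used here.

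The liver is the first organ that a swallowed chemical reaches through the portal vein. Hepatocytes oxidize primary alcohols with alcohol and aldehyde dehydrogenases, conjugate the products, and raise cytochromes P450 and transferases when the receptors CAR and PXR sense a foreign compound. Liver messenger RNA also moves through the day with the circadian clock, in which the repressors Nr1d1 and Nr1d2 and the activator Dbp peak at set hours, and with feeding, fasting and glucocorticoids.

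The arrays looked like liver and like each other. Albumin (Alb) lay between 14.81 and 14.85 log2 units in low-dose livers and between 14.80 and 14.85 in vehicle livers, and transthyretin (Ttr) between 14.13 and 14.26 in low-dose livers and between 14.16 and 14.27 in vehicle livers. Array medians ran over 5.26 to 5.32 in low-dose livers and 5.28 to 5.31 in vehicle livers. The 5' minus 3' beta-actin control, which drops as RNA degrades, had a median of -1.90 in low-dose livers and of -2.05 in vehicle livers. Each array's median correlation with the other livers of the set was at least 0.991. The number of arrays limits the precision, and the p-values measure the spread between these animals.

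No gene passed the test when the low doses were pooled. Of 11335 genes tested with limma, 0 passed an adjusted p of 0.05 after Benjamini-Hochberg correction (0% called, in either direction), and 659 (5.81%) had an unadjusted p under 0.05, of which 317 (2.8%) were higher and 342 (3.02%) lower in low-dose livers. The intervals show how large a difference could still be present. For 97.2% of the genes the 95% interval of the pooled difference lay within 1.5-fold in both directions. The median difference over all genes was -0.00 log2 units and the median standard error 0.08. The interval of 323 genes reached past 1.5-fold and that of 66 past 2-fold, so for those genes these arrays leave a wider range.

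**Figure D1:**
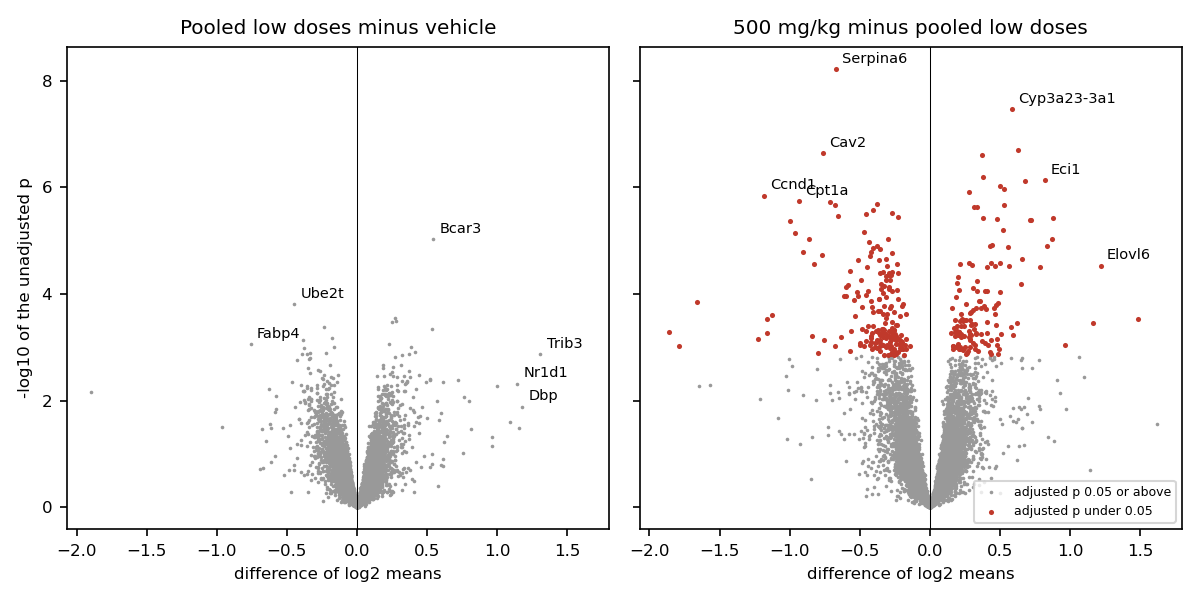
Difference of log2 means (x) against -log10 of the unadjusted p (y), with 1 point per gene, for the pooled low doses minus vehicle (left) and for 500 mg/kg minus the pooled low doses (right). Red points have an adjusted p under 0.05: 0 at left and 324 at right.

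Bcar3, an adaptor of integrin and Cas family signalling, came nearest to the threshold. Its log2 value in low-dose livers had a lowest value of 6.99, a median of 7.53 and a highest of 7.92, against 6.75, 7.01, 6.93, 6.88 and 7.33 in vehicle livers. Values of 13 of the 16 low-dose livers lay above all 5 vehicle livers, and the other 3 were at 100 mg/kg. The pooled difference was 0.54 ± 0.10 (SE), with an interval of 0.34 to 0.75 and an adjusted p of 0.107, or 1.46-fold. By dose it was 0.62, 0.59, 0.69 and 0.28 at 0.1, 1, 10 and 100 mg/kg. Its call rests on the setting: the adjusted p was 0.0186 without the vehicle liver of replicate 8, 0.0492 without the 100 mg/kg liver of replicate 29, 0.0234 without the 100 mg/kg group and 0.0146 with array weights. Over all the alternatives tried it ran up to 0.82.

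The other genes with the smallest p in either direction all had an adjusted p of 0.726. Those higher in low-dose livers were the DNA crosslink repair nuclease Dclre1a (0.27), the lysosomal sialidase Neu1 (0.28), the RNA helicase Ddx5 (0.25), the B cell antigen Ms4a1 (0.54), Serinc5 (0.22), Oaf (0.38), the chromatin organizer Satb1 (0.41), the pseudokinase Trib3 (1.31) and the Mediator subunit Med13 (0.37). Those lower were the ubiquitin-conjugating enzyme Ube2t (-0.45), Tnfrsf4 (-0.23), the myosin chaperone Unc45a (-0.18), Lmcd1 (-0.39), the fatty acid binding protein Fabp4 (-0.76), S100a16 (-0.16), the potassium channel Kcnc2 (-0.38), the centromere chaperone Hjurp (-0.33), the protease Tmprss2 (-0.22) and the zinc finger protein Mecom (-0.36). None of these 19 passed.

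Within this group the separation from vehicle differed. S100a16 was the 1 gene of 11335 (0.00882%) in which all 16 low-dose livers lay below all 5 vehicle livers, and no gene had all 16 above. How many such genes chance would give among so many was not worked out, and S100a16 did not pass the adjusted threshold. Its low-dose values ran over 8.64, 8.72 and 8.83 (lowest, median, highest), against 8.88, 8.85, 8.84, 8.88 and 8.97 in vehicle livers, a small difference with little spread. Ube2t, which acts in DNA crosslink repair, had 4.00, 4.34 and 4.84 in low-dose livers, against 4.64, 4.71, 4.72, 5.11 and 4.92 in vehicle livers, and 14 of 16 lay below all vehicle values. The Ube2t values lie near 4.69, the level below which a value counted as low in the filter.

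Lmcd1, a LIM domain protein of muscle gene control, had 4.80, 5.07 and 5.52 in low-dose livers, against 5.43, 5.52, 5.37, 5.61 and 5.47 in vehicle livers, with 14 of 16 below all vehicle values. Fabp4, which carries fatty acids in fat cells and some endothelium, had 3.92, 4.99 and 5.60 in low-dose livers, against 5.18, 5.60, 5.48, 5.43 and 6.22 in vehicle livers. At 100 mg/kg its 4 values overlapped the vehicle range more than at the lower doses, with differences of -0.87, -0.83, -1.01 and -0.32 at 0.1, 1, 10 and 100 mg/kg. The 6 fat cell markers tested, Fabp4 among them, had a median difference of 0.02. Their mean level was 6.48 to 6.77 in low-dose livers, against 6.64 to 6.80 in vehicle livers, and their part in the Fabp4 values was not tested. Ms4a1 had 4.79, 5.49 and 6.23 in low-dose livers, against 4.80, 4.80, 4.84, 5.23 and 4.89 in vehicle livers. The 5 B and plasma cell markers tested, Ms4a1 among them, had a median difference of 0.13. All 5 were positive, beside 5626 of 11335 over all genes tested. These markers had a mean level of 5.07 to 5.58 in low-dose livers, against 5.10 to 5.22 in vehicle livers. Their part was not tested, and in bulk tissue more cells of a type and more RNA per cell cannot be told apart.

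**Figure D2:**
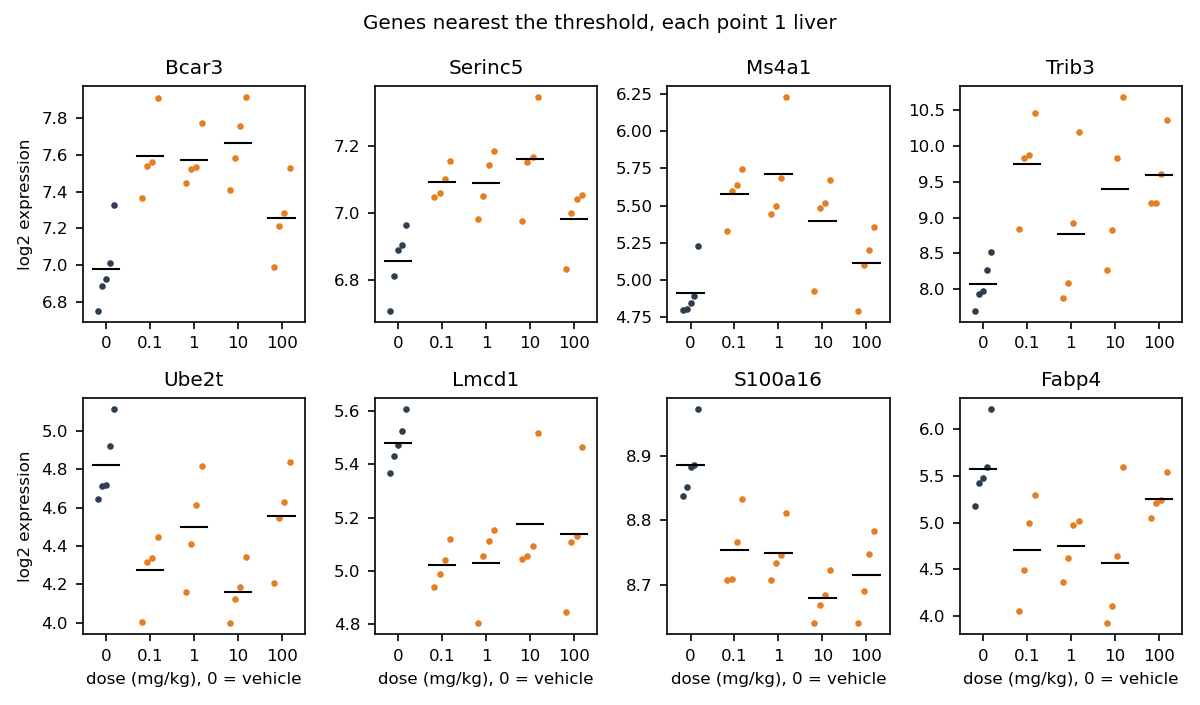
Log2 expression (y) in each liver by MCHM dose (x, mg/kg, with vehicle as 0), for 8 of the genes nearest the threshold. Points are livers and bars are group means. The 13 low-dose livers above all vehicle livers for Bcar3 and the 16 below for S100a16 can be read directly.

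Probe sets of the same gene did not always give the same size. For Trib3 the other 2 probe sets gave 1.10 and 1.42, and for Nr1d2 they gave 0.88 and 0.31 where the one used gave 0.76. For Kcnc2 the 5 others gave between -0.08 and 0.12, for Mecom the other gave -0.01, for Med13 0.05 and for Satb1 0.10. The largest difference of all, -1.90 for the phospholipase Abhd3, came from 1 probe set with 8.05 in 1 low-dose liver and 2.97 to 4.20 in the other 15, against 8.08, 8.27, 5.09, 3.65 and 3.00 in vehicle livers. The high low-dose liver was at 100 mg/kg, and both groups held high and low values. The other probe set of Abhd3 gave -0.07.

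Taken 1 at a time, the doses gave no called gene either. The adjusted p fell under the threshold for 0 genes (0% called) at each of 0.1, 1, 10 and 100 mg/kg, with 476, 646, 710 and 432 genes at an unadjusted p under 0.05, which are 4.2%, 5.7%, 6.26% and 3.81%. Intervals at single doses are wider than in the pooled comparison: between 93.1% and 94.1% of genes had an interval within 1.5-fold. The smallest adjusted p was 0.168, at 10 mg/kg, for Bcar3.

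There was no called difference between the doses themselves. A rank trend over the 4 doses gave 0 genes (375 with an unadjusted p under 0.05, 3.31%), and a test of any difference among them gave 0 (372, 3.28%), by limma. Gnpda1, a deaminase of amino sugar breakdown, had the smallest trend p of those lower at higher dose, with differences from vehicle of -0.06, 0.03, -0.11 and -0.58 in dose order. Dkk3, a secreted Wnt modulator, led the other direction with -0.20, -0.11, 0.13 and 0.15.

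The clock genes had some of the widest values in these livers. Of 16 tested, 3 had an unadjusted p under 0.05 and were higher in low-dose livers, 1 was lower and 0 were called, with a list median of -0.04. The shares over all genes tested at that p were 2.8% higher and 3.02% lower. By sign, 7 of the clock genes were positive and 9 negative, beside 5626 and 5709 of 11335 over all genes tested. Nr1d1, a heme receptor that represses Bmal1 transcription, had 4.90, 6.94 and 7.77 (lowest, median, highest) in low-dose livers, against 6.30, 5.62, 4.50, 4.33 and 6.44 in vehicle livers. The pooled difference was 1.14 ± 0.37 (SE, adjusted p 0.759), and by dose it was 1.44, 1.21, 1.76 and 0.16. At 0.1, 1 and 10 mg/kg, 11 of 12 livers lay above the vehicle range, while 3 of the 4 livers at 100 mg/kg lay inside it.

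Its paralog Nr1d2 followed the same order of doses, with 1.04, 0.91, 1.15 and -0.04, and a pooled difference of 0.76 (adjusted p 0.759). Dbp, a transcription factor that drives output genes of the clock, had 4.46, 5.52 and 8.32 in low-dose livers, against 4.98, 4.96, 4.29, 4.60 and 5.39 in vehicle livers, a pooled difference of 1.18 (adjusted p 0.782). The highest livers had 8.05 at 0.1 mg/kg (replicate 13), 8.32 and 7.78 at 1 mg/kg (replicates 16 and 20), and 7.04 at 10 mg/kg (replicate 25). The other 3 livers at 10 mg/kg had 6.86, 6.36 and 5.55, so all 4 of that dose lay above the highest vehicle liver. Nfil3, which represses the sites that Dbp activates, was low in 3 of these 4 livers: 7.48 in replicate 13, 6.74 in replicate 16 and 6.87 in replicate 20, where the vehicle livers ran from 8.43 to 9.09. In replicate 25 it had 8.35. Cry1, a repressor of the clock, was at -0.43 (adjusted p 0.880).

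**Figure D3:**
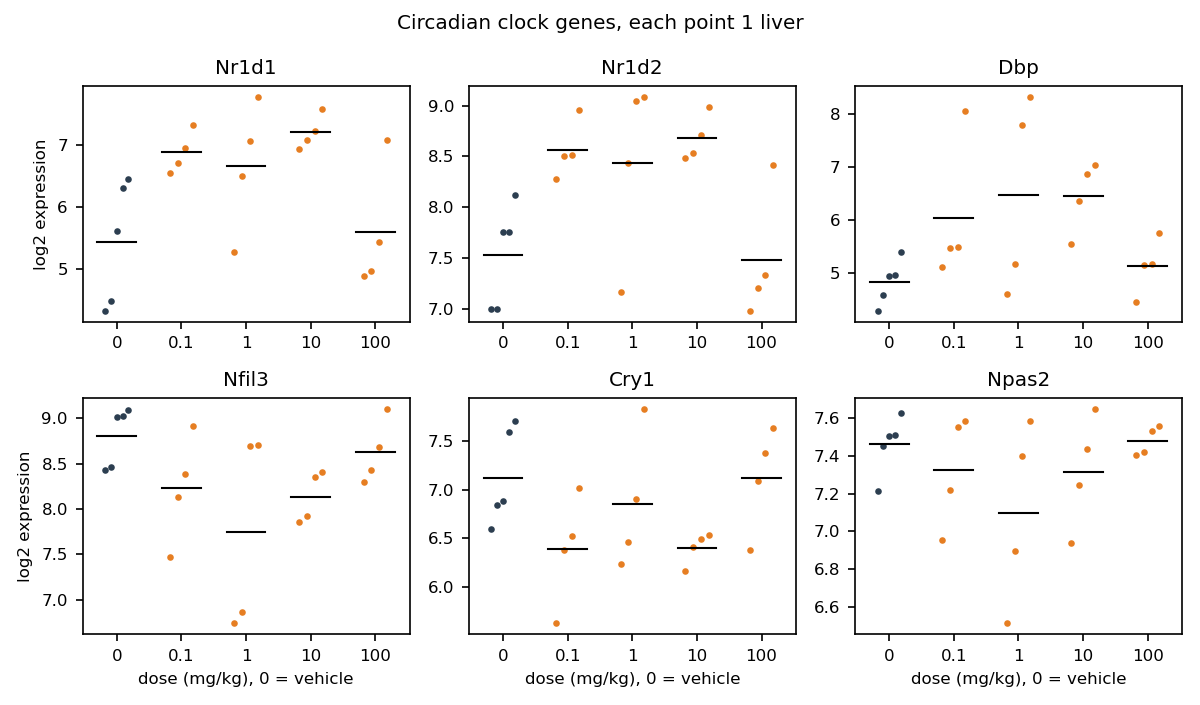
Log2 expression (y) of 6 clock genes in each liver by MCHM dose (x, mg/kg, with vehicle as 0). Points are livers and bars are group means. Nr1d1, Nr1d2 and Dbp are spread over more than 2 log2 units between livers, and their 100 mg/kg means differ from the vehicle means by 0.16, -0.04 and 0.30.

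Among the 16 low-dose livers the standard deviation of Dbp was 1.23, the 8th widest of 11335 genes, where the median gene had 0.15. Nr1d1 ranked 19th and Trib3 27th. These genes with large pooled differences were among those with the widest spread over the 16 livers. That spread also holds any differences between the doses.

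Genes of the amino acid and stress response gave mixed values. Trib3, a pseudokinase induced by ATF4 and by fasting, had 7.87, 9.41 and 10.69 in low-dose livers, against 7.93, 8.26, 8.52, 7.97 and 7.69 in vehicle livers, and 13 of 16 lay above all vehicle values. The difference was 1.31 ± 0.36 (SE, adjusted p 0.726), or 2.47-fold, and by dose 1.68, 0.70, 1.33 and 1.52. Chac1, a glutathione-degrading enzyme that ATF4 also induces, had 6.07, 8.17 and 9.61 in low-dose livers, against 6.95, 6.61, 6.39, 7.28 and 6.16 in vehicle livers. Its differences by dose were 1.42, 0.11, 1.18 and 1.91, and its adjusted p was 0.794. The one-carbon enzyme Mthfd2 was at 0.44 (adjusted p 0.788). Of the 25 genes of the unfolded protein and amino acid response list, 0 were called, 2 had an unadjusted p under 0.05 higher and 6 lower, with a list median of -0.07. The chaperones Dnajb9 (-0.37) and Calr (-0.22) were among the lower ones, and Dnajb9 was at -0.24 without vehicle replicate 4. Over all genes tested the median was -0.00, and the shares with an unadjusted p under 0.05 were 2.8% higher and 3.02% lower.

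The windows around the gene starts of Trib3 and Chac1 are shown because both genes were higher in mean and hold a match to TGATGNAAN, letters bound by ATF4 with C/EBP partners in other promoters. They are RefSeq windows of GRCr8 from 250 bases before the gene start to 50 after it, at chr3:161275484-161275783 (minus strand) for Trib3 and chr3:126795881-126796180 (plus strand) for Chac1. Both strands were searched, and capitals mark the match, which begins at base -22 from the gene start in Trib3 and at base -168 in Chac1. Of the 27457 windows searched, 3.8% held a match, and of the 9462 genes tested in the pooled comparison with a window, 2.02% did. The windows of Asns and Mthfd2 did not. A match is a description of letters and says nothing of binding in these livers.
Trib3: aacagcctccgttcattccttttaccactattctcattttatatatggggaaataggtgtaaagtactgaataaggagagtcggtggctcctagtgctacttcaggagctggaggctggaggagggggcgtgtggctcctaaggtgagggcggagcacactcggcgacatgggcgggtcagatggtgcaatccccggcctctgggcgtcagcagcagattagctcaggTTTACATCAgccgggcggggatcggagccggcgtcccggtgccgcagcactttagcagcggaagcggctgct
Chac1: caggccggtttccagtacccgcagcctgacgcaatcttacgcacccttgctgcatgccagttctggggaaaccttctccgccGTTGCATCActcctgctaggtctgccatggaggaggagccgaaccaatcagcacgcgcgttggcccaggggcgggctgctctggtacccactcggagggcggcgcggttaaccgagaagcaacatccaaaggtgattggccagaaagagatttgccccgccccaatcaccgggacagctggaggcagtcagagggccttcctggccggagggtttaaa

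Of 19 genes of bile acid synthesis and transport tested, 16 were positive, 4 had an unadjusted p under 0.05, all higher in low-dose livers, and 0 were called. The list median was 0.10, beside -0.00 over all genes tested, of which 5626 of 11335 were positive and 5.81% had an unadjusted p under 0.05. Abcg5 and Abcg8 form the heterodimer that pumps plant sterols and cholesterol into bile, and they lie head to head. Abcg5 had 8.24, 8.90 and 9.56 in low-dose livers, against 8.83, 8.41, 7.74, 8.51 and 8.21 in vehicle livers, a difference of 0.49 ± 0.16 (SE, adjusted p 0.759). Abcg8 had 6.06, 6.75 and 7.83 in low-dose livers, against 6.66, 6.23, 5.42, 6.48 and 5.91 in vehicle livers, a difference of 0.62 ± 0.20 (SE, adjusted p 0.759). Cyp8b1, the sterol 12-alpha-hydroxylase that sets the bile acid mix, was at 0.36 (adjusted p 0.759). For each of the 3 genes the highest vehicle livers overlapped the low-dose range.

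The 2 sterol transporter genes share their start region. RefSeq places the Abcg5 window at chr6:15717686-15717985 (plus strand) and the Abcg8 window at chr6:15717681-15717980 (minus strand) in GRCr8, so 295 bases are common to both, and the plus strand sequence of Abcg5 is printed to show the stretch that both use.
Abcg5: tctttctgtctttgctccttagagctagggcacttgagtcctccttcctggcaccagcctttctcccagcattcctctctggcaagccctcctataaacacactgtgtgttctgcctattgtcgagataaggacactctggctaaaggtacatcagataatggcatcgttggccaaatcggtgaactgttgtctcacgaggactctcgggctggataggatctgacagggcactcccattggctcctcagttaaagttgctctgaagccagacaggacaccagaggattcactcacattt

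Some genes of amino acid breakdown, fasting and hormone response had higher means in low-dose livers, with 0 called. Tat, the tyrosine aminotransferase that glucocorticoids induce, had 8.65, 9.35 and 10.49 in low-dose livers, against 8.38, 8.67, 9.15, 8.47 and 8.66 in vehicle livers, and its differences were 0.73, 0.47, 0.86 and 0.82 in dose order (pooled 0.72 ± 0.23 SE, adjusted p 0.759). Gpt, the alanine aminotransferase, was at 0.38 (adjusted p 0.782) and by dose at 0.20, 0.29, 0.54 and 0.48. Of the 32 amino acid breakdown genes 0 were called and the median was 0.04. The IGF carrier Igfbp1, which insulin suppresses, was at 1.09 (adjusted p 0.788), with 9.30, 10.40, 9.18, 7.21 and 10.15 in vehicle livers, so 1 vehicle liver, replicate 7, lay far below. Without it the difference was 0.58 (adjusted p 0.935). The carnitine transferase Cpt1a was at 0.40 and the kinase Sgk1 at 0.81. The lists that hold Igfbp1 and Cpt1a had medians near 0. Gluconeogenesis and fasting had a median of 0.02 (15 positive and 9 negative, lowest Irs2 at -0.25). The median was -0.02 for growth hormone and IGF (8 positive and 11 negative, lowest Cish at -0.69). For PPAR-alpha and fatty acid oxidation it was 0.03 (21 positive and 14 negative). Of 16 glucocorticoid targets and metallothioneins, 12 were positive, beside 5626 of 11335 over all genes tested. The median of that list was 0.11. At an unadjusted p under 0.05, 2.8% of all genes tested were higher and 3.02% lower. In the list, 3 were higher and 1 lower at that p, and 0 were called. The lower one was the transcription factor Cebpd (-0.24), and the phosphatase Dusp1 had the lowest value of that list (-0.52). The cyclin-dependent kinase inhibitor Cdkn1a (-0.63), the immediate early gene Gadd45g (-0.96) and Plk2 (-0.34) were lower in mean. None passed.

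Lists of detoxification genes had medians close to 0. CAR and PXR targets had 0 of 21 called, 1 with an unadjusted p under 0.05, 19 of 21 positive and a median of 0.07. Over all genes tested, 5626 of 11335 were positive and 5.81% had an unadjusted p under 0.05. The drug-metabolizing cytochrome Cyp3a23-3a1 averaged 12.50 ± 0.14 in low-dose livers and 12.50 ± 0.13 in vehicle livers (SD, n = 16 and 5), with an interval of -0.15 to 0.14 for the difference. The cytochrome Cyp2e1, which oxidizes small alcohols, was at 0.07 with an interval of -0.04 to 0.18. Lists of AhR targets (6 tested, median -0.02), Nrf2 targets (21, 0.04), glutathione transferases (20, 0.01) and alcohol and aldehyde oxidation (17, 0.02) had no member with an unadjusted p under 0.05. For 16 of the 17 alcohol and aldehyde genes the interval lay within 1.5-fold, and for 19 of the 20 glutathione transferases.

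Cell cycle genes were lower in mean, with 22 of 30 negative, 4 at an unadjusted p under 0.05, 0 called and a median of -0.14. Over all genes tested, 5709 of 11335 were negative, 5626 positive and 5.81% at an unadjusted p under 0.05. The highest cell cycle value was 0.27, for Ccnd1. Tyms (-0.24), Nusap1 (-0.33) and Kif20a (-0.35, or -0.52 without vehicle replicate 8) had the smallest p. Immediate early genes (26 tested, median -0.08) and heat shock genes (15, -0.06) had 0 called. Cholesterol synthesis genes had a median of 0.11 with 18 of 21 positive, and medians of 0.08, 0.18, -0.05 and 0.18 at 0.1, 1, 10 and 100 mg/kg. The sterol reductase Tm7sf2 was at 0.25 (adjusted p 0.760) and the transcription factor Srebf2, which drives the pathway, at -0.16 (adjusted p 0.843). Acute phase proteins had a median of -0.00, ribosomal proteins -0.03 and respiratory chain genes -0.02.

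**Figure D4:**
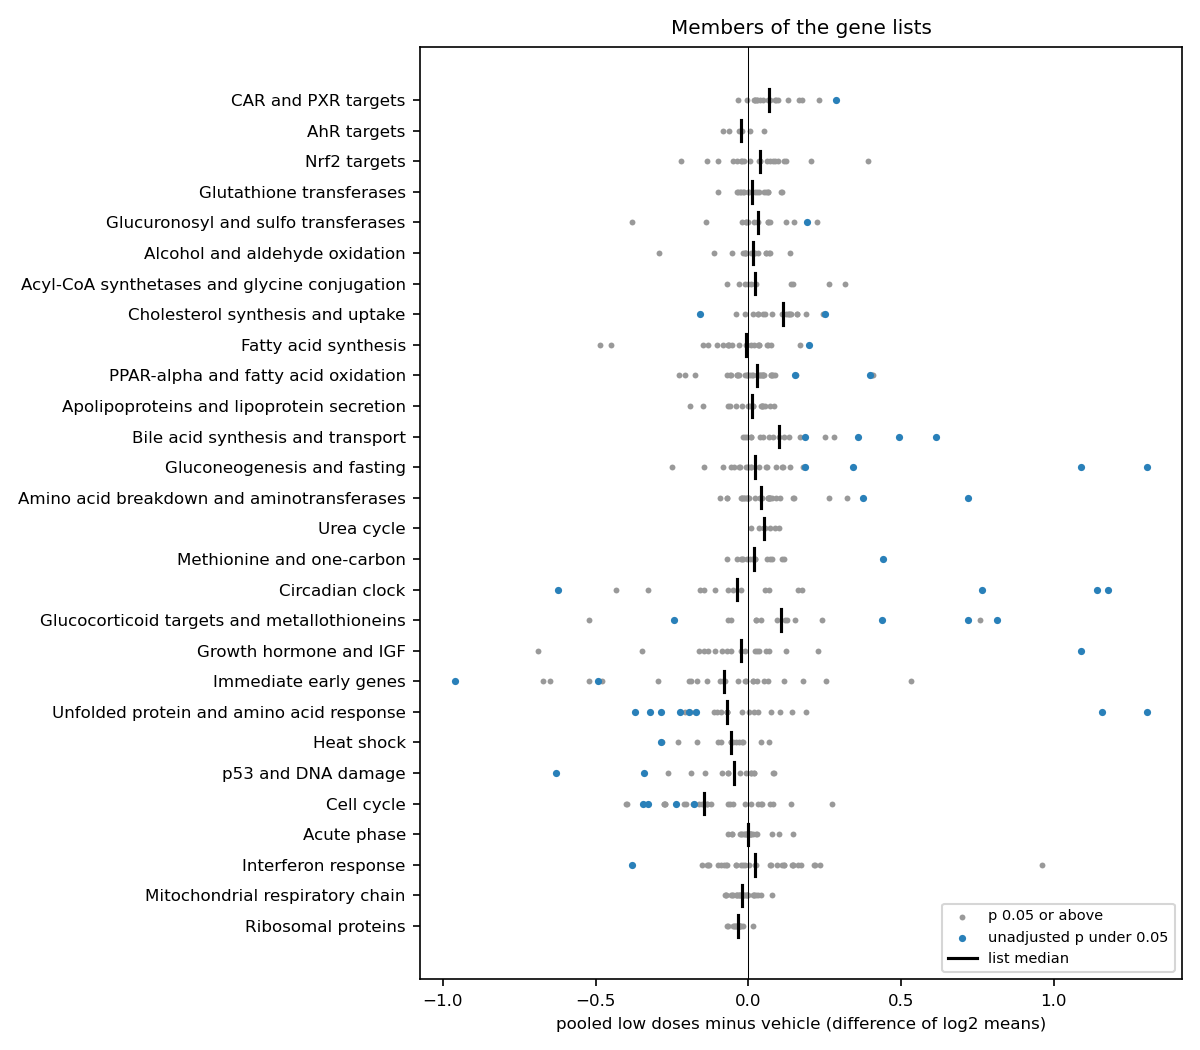
Differences of log2 means (x, pooled low doses minus vehicle) for the members of 28 gene lists (y). Points are genes, blue where the unadjusted p was under 0.05, and the black bar is the list median. The list medians lie between -0.14 and 0.11.

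The 500 mg/kg livers of the same set differed from the low-dose livers. With no vehicle value in the contrast, 324 genes (2.86%) were called between the 4 livers at 500 mg/kg and the 16 low-dose livers, 136 (1.2%) higher and 188 (1.66%) lower, of which 45 differed by at least 1.5-fold (17 higher, 28 lower). Leaving out the 500 mg/kg liver of replicate 40 gave 155 calls, replicate 41 gave 204 and replicate 42 gave 156, and array weights gave 496. The comparison of 500 mg/kg with vehicle called 58 genes (0.512%), 33 higher (0.291%) and 25 lower (0.221%), of which 48 were called in both. The 2 comparisons share the 500 mg/kg livers. Their counts differ in precision, since 1 rests on 16 low-dose livers and the other on 5 vehicle livers. The median standard error was 0.085 and 0.102, and 17.1% and 13.4% of genes had an unadjusted p under 0.05.

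Of the 21 CAR and PXR targets, 3 rose and 1 fell at 500 mg/kg against the low doses. Cyp3a23-3a1 averaged 13.08 ± 0.07 at 500 mg/kg (SD, n = 4), and all 4 livers lay above the low-dose livers, whose range was 12.10 to 12.68 (0.58 ± 0.08 SE, adjusted p 0.000195). Cyp3a18 rose by 0.53 and the carboxylesterase Ces2c by 0.71. Of 35 genes of fatty acid oxidation, 3 rose and 1 fell, with Eci1, an isomerase of unsaturated fatty acids, up by 0.82 and the peroxisomal enzyme Ehhadh up by 0.68. With the mean of all its probe sets Eci1 was at 0.29 and no longer passed (adjusted p 0.0695). Pex14, a peroxisome import protein outside the lists, rose by 0.37. Of 23 fatty acid synthesis genes, 5 rose and 1 fell, among them the elongase Elovl6 (1.22), the citrate lyase Acly (0.87) and the synthase Fasn (0.79). The pooled low-dose differences of these genes from vehicle were -0.01 for Cyp3a23-3a1, 0.09 for Cyp3a18, 0.10 for Ces2c, -0.18 for Eci1, -0.03 for Ehhadh, 0.01 for Pex14, 0.07 for Elovl6, 0.03 for Acly and 0.01 for Fasn.

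Serpina6, the plasma carrier of corticosteroids, fell at 500 mg/kg, to 11.79, 11.84, 11.76 and 11.57 against a low-dose range of 12.19 to 12.58 (-0.67 ± 0.08 SE, adjusted p 6.78e-05). Cav2, a caveolar protein, fell by 0.77, the G1 cyclin Ccnd1 by 1.19 and the chemokine Ccl5 by 0.71. Ccl5 and Prf1 were the 2 of 10 T and NK cell markers that fell, where the list median was -0.19, and the plasma cell gene Jchain fell by 1.00, or by 0.47 with the mean of its probe sets (adjusted p 0.0336). The call of Prf1 was lost without replicate 40, 41 or 42 of the 500 mg/kg livers (adjusted p 0.0683, 0.0691 and 0.0533). The part of cell numbers in these values was not tested. The transporters Abcg5 and Abcg8 and the carnitine transferase Cpt1a fell by 0.96, 0.84 and 0.94 against the low doses, while the differences of 500 mg/kg from vehicle were -0.47, -0.23 and -0.54 and those of the low doses from vehicle were 0.49, 0.62 and 0.40. The call of Abcg8 was lost when any 1 of the 4 livers at 500 mg/kg was left out (adjusted p 0.0632 to 0.101). These figures share arrays, since the low-dose livers enter 2 of the 3. Gpt rose by 0.84, with 0.38 for the low doses against vehicle.

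**Figure D5:**
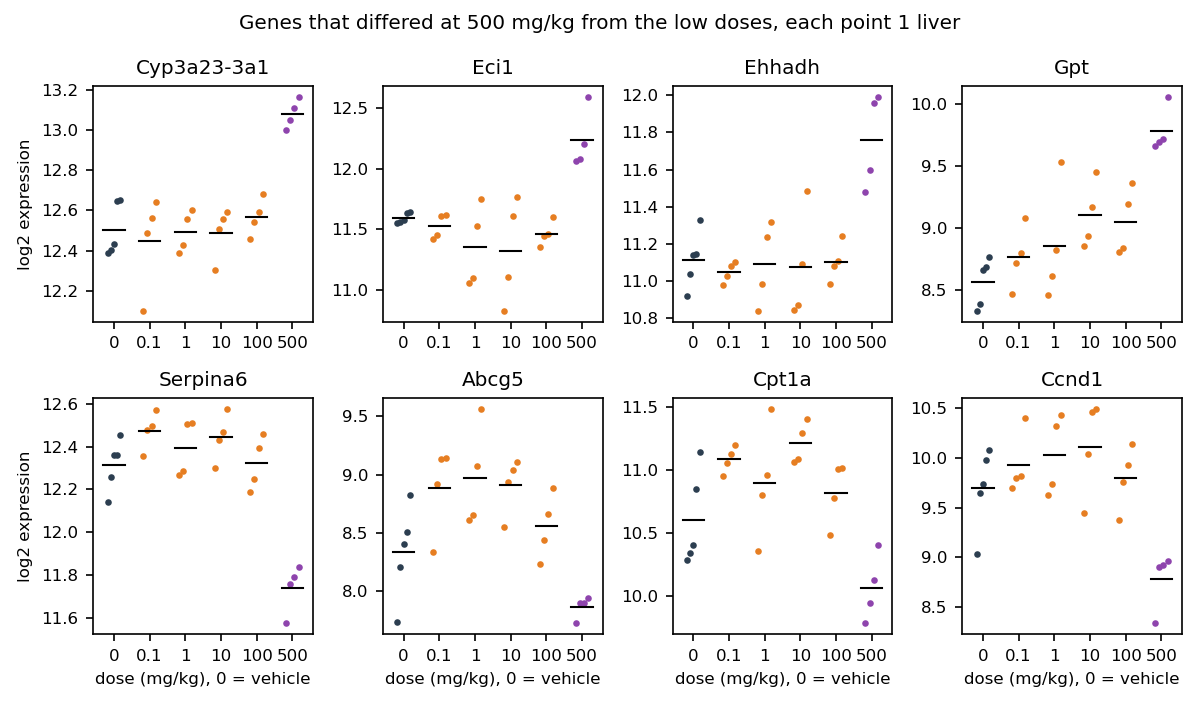
Log2 expression (y) of 8 genes called between 500 mg/kg and the low doses, in each liver by MCHM dose (x, mg/kg, with vehicle as 0). Points are livers and bars are group means. The 500 mg/kg livers stand apart from the 16 low-dose livers for Cyp3a23-3a1, Serpina6, Abcg5 and Ccnd1, for example.

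The low-dose response was set beside those of the other chemicals, each measured against its own vehicle livers. Pure and crude MCHM differ in that crude MCHM is the mixture. At the same 4 doses, the MCHM response minus the crude MCHM response gave 0 called genes of 11624 by limma (506 with an unadjusted p under 0.05, 4.35%), and 90.3% of the intervals lay within 1.5-fold. Across 11335 genes the pooled differences of both had a Pearson r of 0.21 and a Spearman rho of 0.16, a description over genes that are not independent. Trib3 was at 1.31 with MCHM and 0.97 with crude MCHM (difference 0.34, interval -0.79 to 1.46). Nr1d1 was at 1.14 with MCHM and -0.36 with crude MCHM (interval of the difference 0.21 to 2.80, adjusted p 0.999), and Bcar3 was at 0.54 and 0.03.

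Against PPH at the 3 shared doses of 1, 10 and 100 mg/kg, 14 genes (0.12%) were called, all with a lower response to MCHM than to PPH. Another 1186 (10.2%), counting these, had an unadjusted p under 0.05. PPH at these doses against its own vehicle called 166 genes (1.43%), 142 higher (1.22%) and 24 lower (0.206%), where the pooled low MCHM doses called 0. Mif, the macrophage migration inhibitory factor, had a response of -0.15 to MCHM and 0.47 to PPH, a difference of -0.62 (interval -0.84 to -0.40, adjusted p 0.00552). Pgk1, a glycolytic kinase, had -0.17 and 0.25 (adjusted p 0.0112), and the tubulin Tubb2a -0.32 and 0.56 (adjusted p 0.0149). Dbp had 1.18 with MCHM and -1.02 with PPH, a difference of 2.20 with an adjusted p of 0.0796. Over the fits that leave out 1 array the count ran from 3 to 42.

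The vehicle livers themselves differed between the chemical sets. Between the MCHM vehicle livers and those of the other 2 sets, 2027 of 11624 genes (17.4%) were called, 1397 (12%) higher and 630 (5.42%) lower in the MCHM set. For Fabp4 the MCHM vehicle mean was 0.76 higher than the others (adjusted p 0.0548), for Ms4a1 it was -0.47 (adjusted p 0.0280) for S100a16 0.16 (adjusted p 0.0101) and for Bcar3 -0.32 (adjusted p 0.120). Each is opposite in sign to the low-dose difference of the gene. Both figures use the same 5 MCHM vehicle livers, whose mean enters them with opposite signs, so they are not independent. These genes are examples, and the signs of the other genes were not counted. The chemical set and any processing group cannot be told apart, and the differences above are taken within a set.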

How the data were processed

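Liver RNA was measured on Affymetrix Rat Genome 230 2.0 arrays. The deposited log2 values were made by the authors with RMA, per the submitters' processing notes. Software, version and which arrays were processed together are not given in the sources used here. The 31099 probe sets were named through the array annotation: 20832 had 1 symbol, 436 several and 9831 none, giving 14218 genes. A gene is represented by its brightest probe set, judged by the mean over liver arrays, and was tested when above 4.69 (the 40th percentile of liver values) in at least 3 arrays.

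limma 3.58.1 in R 4.3.3 (data.table version 1.17.8) was fitted on all 29 MCHM liver arrays, so that the 300 and 500 mg/kg groups share the estimate of spread, and on all 81 liver arrays for comparisons between chemicals. The pooled value is the mean of the 4 dose group means minus the vehicle mean. Tests were two-sided with Benjamini-Hochberg adjustment over all genes tested, called under 0.05. Intervals are 95% intervals of the fit. The scripts were tested on simulated data. Figures and flags used Python 3.11.15, pandas 2.3.3 and matplotlib 3.10.9. Promoter windows came from RefSeq (GRCr8).

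Named genes are the 10 with the smallest p in each direction, up to 3 members per list, and the 3 with the smallest adjusted p per direction in other comparisons. Abhd3, Chac1, Nfil3, Cry1, Alb and Ttr fall outside the rule and were chosen after their values were seen. Members and lists were chosen with earlier results of these data known. The settings varied were the filter (none), probe sets (averaged per gene), a further quantile normalization, array weights, eBayes with trend and robust settings, other sets of arrays, and each dose group or array left out.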

Additional observations from a re-analysis of the deposited data

Results flagged for a closer look

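In 18 of the 360 sets of 4 or 5 livers tested (72 genes in 5 groups), 1 liver lay far from the others of its group, and chance alone gives about 1 in 20. At 100 mg/kg the Ddx5 value of replicate 29 was 11.12 where the next was 10.78. In replicate 28 of the same group Unc45a was 7.28 (next 7.04), Slc38a3 11.20 (next 10.87) and Tyms 5.74 (next 5.40), and in replicate 31 Dnajb9 was lowest at 9.11 (next 9.22).

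At 10 mg/kg replicate 25 had the highest Lmcd1, at 5.52 (next 5.09), and the lowest Cyp2e1, at 13.51 (next 13.59). Krt8 was 10.54 in replicate 26 (next 10.12) and Kif20a 5.52 in replicate 23 (next 4.96). At 1 mg/kg replicate 19 had the highest Gadd45g, at 9.11 (next 6.80), and the highest Ier2, at 9.16 (next 7.92). At 0.1 mg/kg Dbp was 8.05 in replicate 13 (next 5.49) and Mthfd2 6.51 in replicate 14 (next 5.98).

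Among vehicle livers, Ms4a1 was 5.23 in replicate 7 (next 4.89) and Nusap1 6.83 in the same liver (next 6.42). Replicate 8 had the highest Oaf, at 10.23 (next 10.01), and the lowest Kif20a, at 4.90 (next 5.67). Slc12a3 was 4.98 in replicate 4 (next 4.66).

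The low-dose response to MCHM differed from that to PPH by a test of the difference itself in limma for Mif (-0.62), Pgk1 (-0.42) and Tubb2a (-0.88).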

How the results depend on the processing

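The pooled comparison had 0 calls in the fit reported and 1 (Bcar3) with array weights and 1 without the 100 mg/kg group. Over the 21 fits that leave out 1 array the count was 0 to 1, with 1 without vehicle replicate 8 or 100 mg/kg replicate 29. At 10 mg/kg there was 1 call with array weights, and 0 to 1 over the fits leaving out 1 array, the 1 without vehicle replicate 8. The count of genes at 500 mg/kg against the low doses was 496 with array weights and 155 to 408 with 1 array left out (155, 204 and 156 without 500 mg/kg replicates 40, 41 and 42). The MCHM minus PPH count, 14 in the fit reported, was 5 with no filter, 5 after a further quantile normalization, 37 with array weights and 3 to 42 with 1 array left out. The counts at 0.1, 1 and 100 mg/kg, the trend, the test of any difference among doses and the MCHM minus crude count stayed at 0 in every alternative run. The vehicle comparison ran from 1528 to 2032 with 1 array left out and had 2513 calls with array weights. Of 2362 values of named genes in the pooled comparison, 2358 kept direction and side of the threshold, 4 (all Bcar3) passed it and 0 reversed. Of 1080 at 500 mg/kg, 81 no longer passed and 0 reversed. No paired analysis was possible because the liver groups compared share no animal numbers.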
